A study of Homo sapiens with 6 samples.

Results

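The ER membrane protein complex (EMC) was followed across 3 libraries of 8505C cells transfected with control siRNA (siCtrl) and 3 libraries of 8505C cells transfected with NUF2 siRNA (siNUF2). 8505C is an established anaplastic thyroid cancer (ATC) line, and both groups were collected at 24 h. The labels give siCtrl cells as WT and siNUF2 cells as NUF2 knockdown, both transfected and grown in the same serum-containing medium. The members were the 10 genes of 32985 in the expression table that encode EMC subunits, namely EMC1, EMC2, EMC3, EMC4, MMGT1 (also known as EMC5), EMC6, EMC7, EMC8, EMC9 and EMC10. The list was chosen by the FPKM and counts of EMC6, which had risen in siNUF2 cells. The values of EMC6 in that comparison are therefore given as a description with no test, and the other 9 subunits entered by membership in the complex.

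The EMC sits in the membrane of the endoplasmic reticulum and inserts transmembrane segments of newly made proteins, among them tail-anchored proteins and the N-terminal membrane segment of many receptors. EMC3, a relative of the Oxa1 insertases, and EMC6 line the intramembrane groove through which a segment enters the bilayer. EMC2 and the interchangeable paralogs EMC8 and EMC9 form the cytosolic part. EMC1, EMC7 and EMC10 hold most of the lumenal part. EMC4 and MMGT1 complete the membrane part, and MMGT1 was also described as a candidate magnesium transporter, which is why its name refers to magnesium.

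Library totals ranged from 61257859 to 69755291 counts, and mitochondrial genes held between 5.46% and 6.70% of them with siCtrl and between 6.54% and 7.06% with siNUF2. This share was higher in the siNUF2 library of each same-numbered pair (7.06% over 6.70%, 6.85% over 5.73%, 6.54% over 5.46%), and its part in the results was not tested. NUF2, the targeted gene, fell from 13.9 ± 1.41 FPKM (SD, n = 3) in siCtrl cells to 1.71 ± 0.290 FPKM (SD, n = 3) in siNUF2 cells. FPKM are fragments scaled by gene length and library size. One siRNA against NUF2 was used, so loss of NUF2 and other effects of that siRNA cannot be told apart. Keratins and vimentin were abundant in every library (KRT18 at a mean of 159 FPKM and VIM at 499 FPKM in siCtrl cells), whereas the epithelial markers EPCAM and CDH1 did not exceed 0.243 and 0.0227 FPKM. Of 7 thyroid markers, 6 had a row. NKX2-1 was present (18.5 ± 3.58 FPKM in siCtrl cells, SD, n = 3), whereas TG, SLC5A5 and FOXE1 stayed at or below 0.0281 FPKM in every library and PAX8 at or below 0.774. The summed FPKM of PTPRC, CD3E and PECAM1, markers of blood and vessel cells, was 0.249 to 0.928 in siCtrl libraries and 0.380 to 0.409 in siNUF2 libraries. The labels do not say whether the 3 libraries of a group came from separate cultures, so p-values measure the spread between these libraries, which may be technical.

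EMC6 starts head to head with TAX1BP3, which encodes a small PDZ-domain protein, and the DNA between both starts is shown because it is the upstream sequence of the subunit that moved. It spans 132 bases, 76.5% of them G or C, at chr17:3668680-3668811 on the plus strand (RefSeq promoter table, GRCh38.p14). Capitals mark matches, on either strand, to the consensus word of the factor NRF1.

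EMC6 upstream: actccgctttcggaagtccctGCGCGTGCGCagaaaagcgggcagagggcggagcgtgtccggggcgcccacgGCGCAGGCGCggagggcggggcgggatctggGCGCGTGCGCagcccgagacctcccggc

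The gap held 3 matches to the NRF1 word, and also 3 matches to GGGCGG, which are not marked. Of 35116 promoter windows of a fixed length around gene starts, 5.78% held any match to the NRF1 word. The gap and the windows differ in length and were not matched for G and C, so this share is no base rate for the gap. Promoter windows were found for 8 of the 10 subunits, and of these EMC6 and EMC10 held the word. GGGCGG, the GC box (in 15786 of all windows), was held by 6 of the 8, namely EMC3, EMC4, EMC6, EMC8, EMC9 and EMC10. CCAAT (34.6%) was held by 5 of the 8, namely EMC1, EMC4, EMC6, EMC7 and EMC9. Each of these words was searched on both strands, and neither was particular to EMC6. No subunit's window held TATAAA (11.5%). EMC10 was the subunit whose window held TGACGTCA, the cyclic AMP response element, which 1.85% of all windows held. These matches are letters in a window and not measured sites.

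EMC6 had 16.0, 16.7 and 13.9 FPKM in siCtrl libraries 1, 2 and 3, and 45.5, 39.5 and 43.9 FPKM in siNUF2 libraries 1, 2 and 3. All siNUF2 libraries lay above all siCtrl libraries, with a wide gap between the groups. The mean went from 15.5 ± 1.42 to 43.0 ± 3.14 FPKM (SD, n = 3 each), 277% of the control level. The underlying counts were 995, 1041 and 801 in siCtrl cells and 2719, 2449 and 2438 in siNUF2 cells. The log2 fold change of edgeR was 1.49 (standard error, SE, 0.13), at rank 14 from the highest of 11725 genes tested. Within replicate numbers, the siNUF2 library had 2.85, 2.37 and 3.15 times the FPKM of the siCtrl library. Leaving out any of the 6 libraries kept the log2 fold change between 1.42 and 1.54. As EMC6 was chosen for its rise in these same values, the gap, the rank and this range describe the rise and lend it no support.

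**Figure D1:**
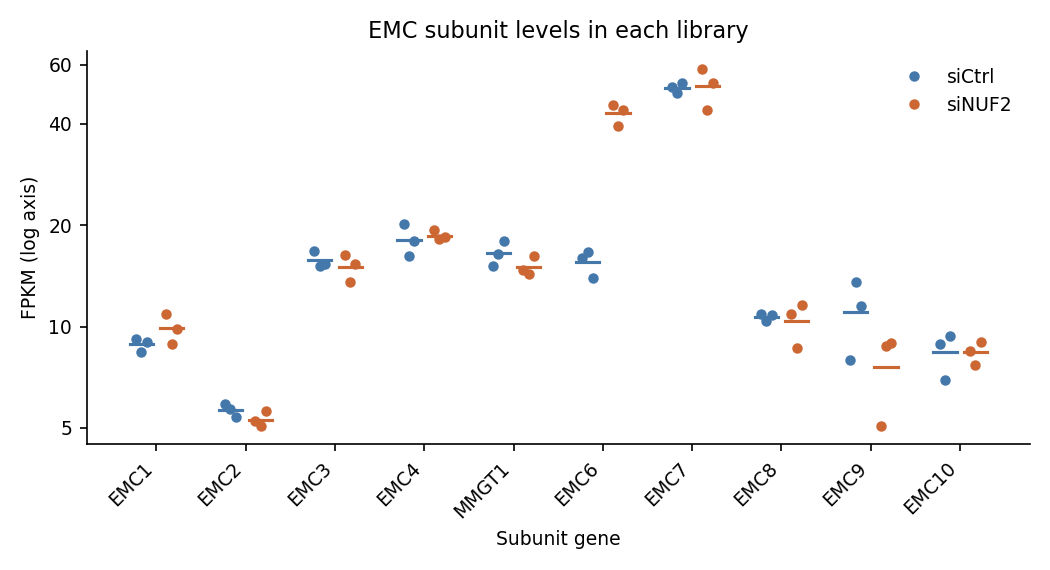
FPKM (log axis) of the 10 EMC subunit genes in each library, with siCtrl libraries in blue, siNUF2 libraries in orange and a line at each group mean (n = 3). EMC6 went from 13.9 to 16.7 FPKM in siCtrl libraries to 39.5 to 45.5 FPKM in siNUF2 libraries, while the libraries of the groups overlapped for each of the other 9 subunits.

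The other 9 subunits were compared in the fit over 11725 genes whose mean FPKM reached 1, a filter that all 10 members passed. In edgeR's quasi-likelihood test 0 of the 9 reached an adjusted p under 0.05, against 3.99% of all genes tested (468 genes, 1.53% higher and 2.46% lower). None had an unadjusted p under 0.05, and DESeq2 also called 0 of them. Their normalized counts overlapped between groups for all 9, whereas 24.1% of all genes tested had groups that did not overlap (12.1% higher and 12.0% lower in siNUF2 cells). Of the 9, 4 were higher and 5 lower, and the median log2 fold change was -0.03, beside 0.01 for all genes tested. When same-numbered libraries were paired by a replicate block, 1 of the 9 passed, EMC9, against 14.5% of all genes (1705 genes, 6.64% higher and 7.91% lower).

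EMC3, the partner of EMC6 in the insertase core, had 16.8, 15.1 and 15.3 FPKM in siCtrl libraries and 16.3, 13.6 and 15.3 FPKM in siNUF2 libraries. Its groups overlapped, and its log2 fold change was -0.05 (95% interval -0.28 to 0.19). MMGT1 had 15.1, 16.4 and 18.0 FPKM in siCtrl libraries and 14.7, 14.3 and 16.2 FPKM in siNUF2 libraries, with a log2 fold change of -0.11 (95% interval -0.35 to 0.13). The siNUF2 library was lower than the siCtrl library of the same number in all 3 pairs of MMGT1, with ratios of 0.978, 0.873 and 0.900. EMC4 had 16.2 to 20.2 FPKM in siCtrl libraries and 18.2 to 19.3 FPKM in siNUF2 libraries (log2 fold change 0.06, 95% interval -0.18 to 0.30).

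On the lumenal side, EMC1, the largest subunit, had 9.16, 8.38 and 9.02 FPKM in siCtrl libraries and 10.9, 8.90 and 9.86 FPKM in siNUF2 libraries. It was higher in the siNUF2 library of all 3 pairs, with a log2 fold change of 0.18 (95% interval -0.05 to 0.41, edgeR adjusted p = 0.415). With the replicate block its interval was 0.01 to 0.34 and its adjusted p 0.143, so it passed neither fit. EMC7, a lumenal subunit with a beta-sandwich fold, had a mean of 51.3 ± 1.64 FPKM in siCtrl cells and 51.8 ± 7.21 FPKM in siNUF2 cells (SD, n = 3 each). EMC10 had means of 8.39 ± 1.28 and 8.37 ± 0.659 FPKM (SD, n = 3 each). The log2 fold changes of EMC7 and EMC10 were 0.03 and 0.02.

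On the cytosolic side, EMC2, the soluble scaffold that joins the cytosolic subunits to the membrane part, had 5.89, 5.67 and 5.40 FPKM in siCtrl libraries and 5.23, 5.05 and 5.59 FPKM in siNUF2 libraries. Its log2 fold change was -0.07 (95% interval -0.32 to 0.17). EMC8 had means of 10.7 ± 0.239 and 10.4 ± 1.55 FPKM (SD, n = 3 each) and a log2 fold change of -0.03 (95% interval -0.31 to 0.26). For the 8 subunits other than EMC6 and EMC9, the 95% intervals without the block together ran from 0.78-fold to 1.33-fold. That of EMC9 ran from 0.45-fold to 1.08-fold.

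**Figure D2:**
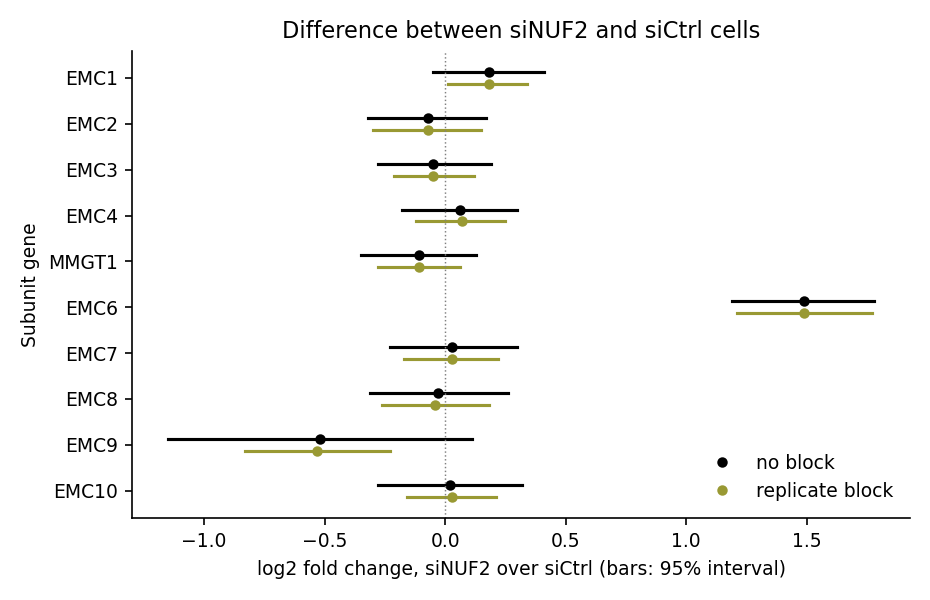
log2 fold change of each EMC subunit gene in siNUF2 over siCtrl cells from edgeR, with bars for the 95% interval, without a block (black) and with the replicate block (olive). EMC6 lies at 1.49, 8 subunits lie between -0.11 and 0.18, and the interval of EMC9 spans 0 without the block (-1.15 to 0.11) and not with it (-0.83 to -0.23).

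Of the 10 members, EMC9 (chromosome 14, 24138959 to 24141591, minus strand) varied most between replicate libraries. It had 7.97, 13.6 and 11.5 FPKM in siCtrl libraries 1, 2 and 3, and 5.07, 8.75 and 8.91 FPKM in siNUF2 libraries 1, 2 and 3. The groups overlapped, and library 1 was the lowest of its group in both. The coefficient of variation was 25.8% in siCtrl and 28.7% in siNUF2 cells, whereas it was 2.23% to 15.3% for the other 9 members. The log2 fold change was -0.52 (SE 0.27, edgeR adjusted p = 0.380) in the fit without the block, which does not use the pairing of libraries. It was -0.29 without siNUF2 replicate 1 and -0.34 without siCtrl replicate 2, and reached -0.70 without siCtrl replicate 1. Within replicate numbers, the siNUF2 library had 0.635, 0.644 and 0.773 times the FPKM of the siCtrl library. With the replicate block EMC9 fell by 0.53 on the log2 scale (SE 0.13, edgeR adjusted p = 0.0351). This call did not hold without replicate number 1, 2 or 3, where the adjusted p of the blocked edgeR fit was 0.103, 0.0643 and 0.0673. The log2 fold changes of those fits were -0.47, -0.50 and -0.62. Between 627 and 1752 counts per library stood behind EMC9, fewer than for the other members except EMC6.

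EMC8 and EMC9 occupy the same place in the complex, so their share was compared. EMC8 made up 57.8%, 43.5% and 48.4% of the summed FPKM of both paralogs in siCtrl libraries, and 68.3%, 49.7% and 56.6% in siNUF2 libraries. The groups overlapped, and the siNUF2 library was higher in each pair, by 10.5, 6.19 and 8.20 percentage points. The mean went from 49.9% ± 7.27 to 58.2% ± 9.42 (SD, n = 3 each), a difference of 8.30 points (exact permutation test, two-sided, p = 0.3, where 3 libraries against 3 cannot give less than 0.1). Without siNUF2 replicate 1 the difference was 3.24 points, without siCtrl replicate 2 it was 5.10 points and without siNUF2 replicate 2 it was 12.6 points. Each of these leaves 1 library without its pair. The exact permutation test within pairs gave p = 0.25, the smallest value it can give.

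**Figure D3:**
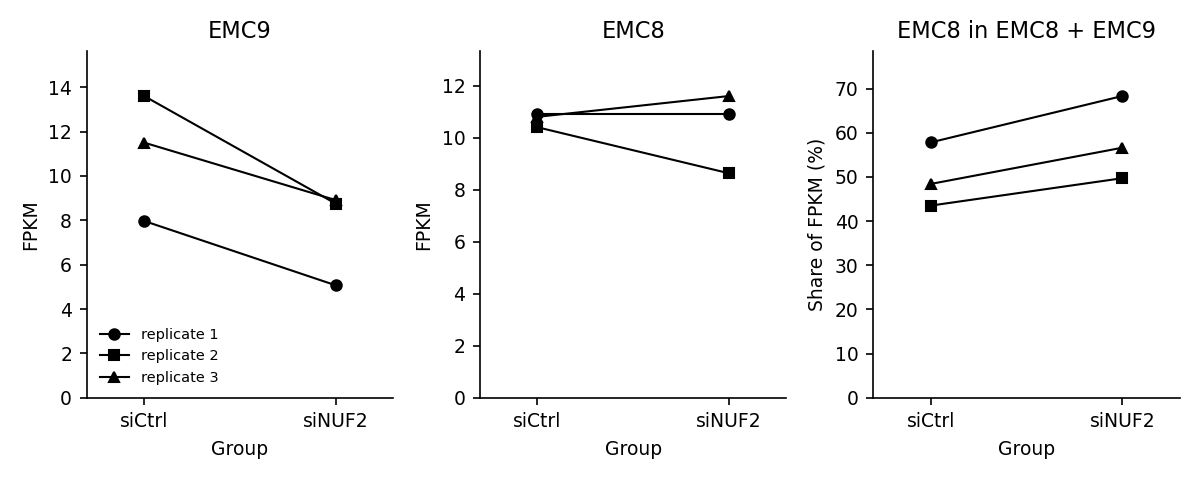
FPKM of EMC9 and of EMC8, and the share of EMC8 in their sum (%), in siCtrl and siNUF2 libraries, with a line joining libraries of the same replicate number. EMC9 was lower in the siNUF2 library of all 3 pairs, and the share of EMC8 was higher in all 3, by 6.19 to 10.5 percentage points.

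The order of subunit levels depended on the length by which counts were divided. A length was derived from the deposited counts and FPKM, with the summed counts of each library taken as its size. For 7 members it was 1.17 times the summed exons of all transcripts in GENCODE release 44, retained introns included. For EMC1, EMC3 and MMGT1 it was 0.745, 1.20 and 0.84 times. If FPKM used another library size, all these lengths would change by a common factor, so they are relative. A second scale was therefore computed, CPM (counts scaled to library size) per kb of the canonical transcript. EMC4 shows the difference, with 4445 bases of summed exons and a canonical transcript of 1019 bases. By FPKM, EMC7 was the highest subunit in siCtrl cells (51.3 ± 1.64, SD, n = 3) and its libraries lay above those of every other subunit. EMC4, MMGT1, EMC3 and EMC6 followed at 18.1, 16.5, 15.7 and 15.5 FPKM, each overlapping its neighbour in the order. EMC2 was the lowest at 5.65 ± 0.243 FPKM (SD, n = 3). On the canonical scale EMC4 led with 91.9 ± 9.77 CPM per kb (SD, n = 3), overlapping EMC7 at 81.0 ± 2.85 (SD, n = 3). EMC3, EMC8, EMC9 and EMC6 followed at 33.2, 25.5, 24.4 and 21.3 CPM per kb, of which EMC8, EMC9 and EMC6 overlapped their neighbours. EMC2 and EMC10 were the lowest at 11.3 and 11.1 CPM per kb and overlapped. The highest mean was 9.07 times the lowest by FPKM and 8.26 times on the canonical scale.

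The place of EMC6 in that order moved on both scales. Relative to the median of the other 9 subunits in the same library, EMC6 stood at 1.47, 1.23 and 1.21 in siCtrl libraries and at 4.16, 4.43 and 3.79 in siNUF2 libraries by FPKM. On the canonical scale the ratios were 1.24, 0.918 and 0.750 in siCtrl libraries and 3.39, 2.79 and 3.05 in siNUF2 libraries. EMC6 thus ranked between 2 and 5 by FPKM and at 5 or 6 on the canonical scale in siCtrl libraries, and at 2 and at 3 in every siNUF2 library.

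**Figure D4:**
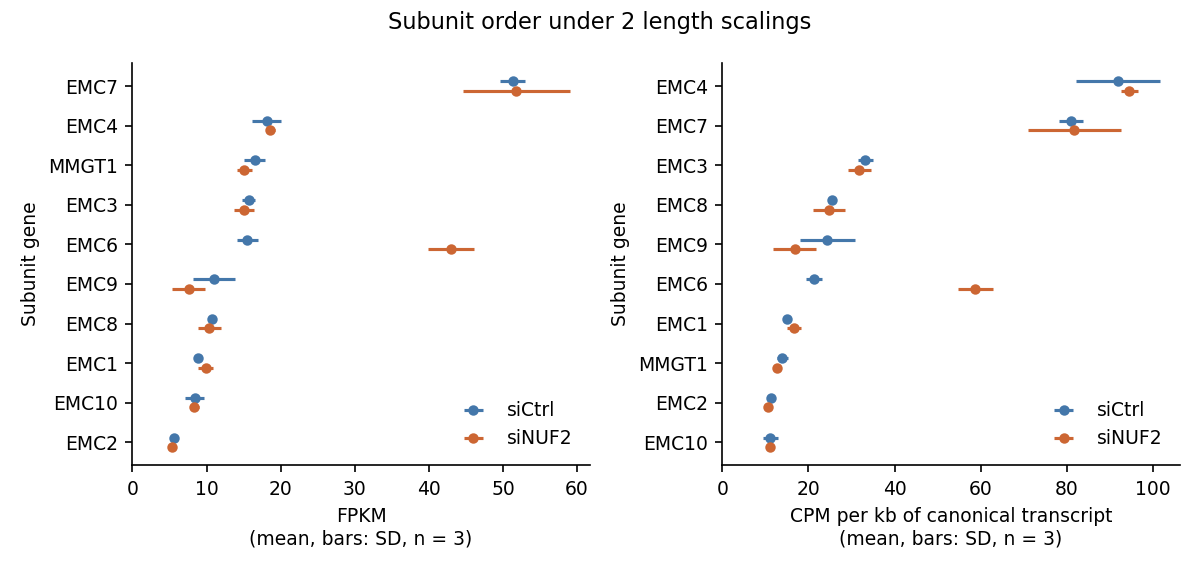
Mean level of each subunit in siCtrl (blue) and siNUF2 (orange) cells as FPKM (left) and as CPM per kb of the canonical transcript (right), ordered by the siCtrl mean, with bars for the SD (n = 3). The siCtrl order differs between the scales, with EMC7 first by FPKM and EMC4 first on the canonical scale, and EMC6 is displaced to the right in siNUF2 cells on both.

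Start and end columns placed 13 other genes over 9 of the 10 members, all but EMC2. Of the 13, 4 overlapped a member head to head, 4 tail to tail, 3 lay antisense with one gene nested in the other and 2 lay on the same strand. Exon bases were shared in GENCODE release 44 by 8 of them. Whether counting used strand is not given in the sources used here, so reads of such pairs cannot be told apart where exons overlap. Of the 13 genes, 5 passed the filter and 0 of these were called, against 3.99% of all genes. Among them were COX4I1 (cytochrome c oxidase subunit, over the start of EMC8, log2 fold change 0.07), PSME1 (proteasome activator subunit, over the end of EMC9, 0.02) and AL136295 (inside EMC9, 0.34).

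EMC6 lies on chromosome 17 from 3668812 to 3669668 on the plus strand. Its whole span falls within the antisense read-through gene P2RX5-TAX1BP3 (3663063 to 3696194), and 571 of its 772 exon bases are also exon bases of that gene. P2RX5-TAX1BP3 had 408, 320 and 444 counts in siCtrl libraries and 637, 239 and 548 in siNUF2 libraries, so its groups overlapped. The mean rise of EMC6 was 1590 counts. The log2 ratio of mean CPM of EMC6 was 1.47 as deposited. Subtracting all counts of P2RX5-TAX1BP3 from EMC6 in each library gave 1.94, and adding them gave 1.21. As the counting tool and strand setting are unknown, these counts do not bound the reads that both genes may share. The part of such reads in the rise of EMC6 was not tested.

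TAX1BP3, which starts 132 bases away on the other strand, had 64.4, 36.1 and 56.7 FPKM in siCtrl libraries and 78.4, 60.7 and 65.3 FPKM in siNUF2 libraries. The groups overlapped. Its log2 fold change was 0.40 (SE 0.20, edgeR adjusted p = 0.367), and with the replicate block it rose by 0.43 (SE 0.11, edgeR adjusted p = 0.0466). P2RX5, an ATP-gated ion channel gene on the minus strand whose 3′ end lies 2530 bases past the end of EMC6, had 262 to 506 counts in siCtrl and 322 to 345 in siNUF2 libraries, with a log2 fold change of -0.12 (edgeR adjusted p = 0.859).

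**Figure D5:**
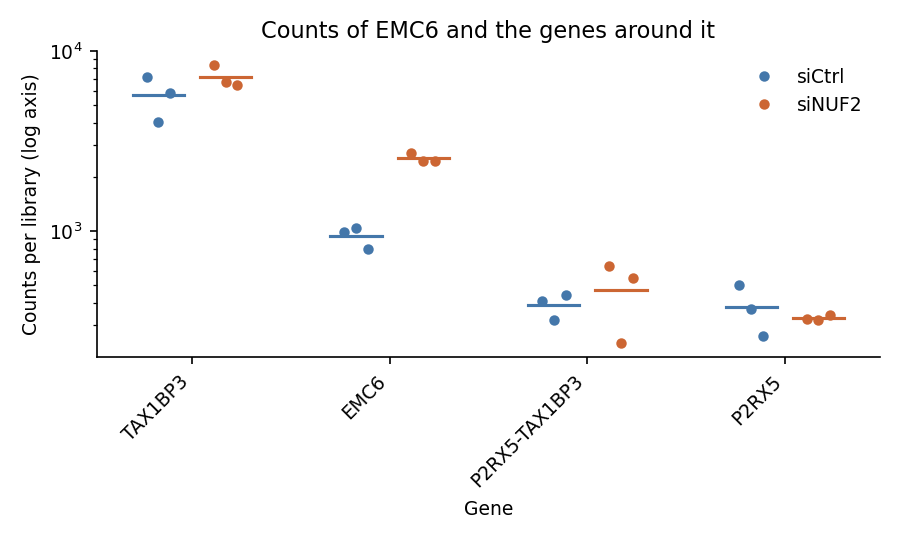
Counts per library (log axis) of EMC6 and of the genes around it on chromosome 17, with siCtrl libraries in blue, siNUF2 libraries in orange and a line at each group mean (n = 3). EMC6 went from at most 1041 counts in siCtrl libraries to at least 2438 in siNUF2 libraries, while the groups overlapped for TAX1BP3, P2RX5-TAX1BP3 and P2RX5.

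Small interfering RNAs can lower other transcripts that pair with their seed, so the members were searched for TATGGAA, the word that pairs with the seed (bases 2 to 8) of the antisense siRNA strand against NUF2, and for its shorter form ATGGAA, on the sense strand of canonical transcripts. EMC1 was the only member with TATGGAA (1 of 10, against 27.3% of 10296 coding transcripts of the genes tested). Its site lies in the coding sequence at chr1:19239837-19239863 on the minus strand (GENCODE release 44, GRCh38) and is shown with the word in capitals, because the gene that holds it had a log2 fold change of 0.18.

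EMC1 site: gcagtaccatTATGGAAcgctgagttt

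ATGGAA was present in 6 of the 10 members, against 67.6% of transcripts. EMC10 held 4 copies, EMC2, MMGT1 and EMC9 held 2 each, EMC1 and EMC3 held 1 each, and EMC4, EMC6, EMC7 and EMC8 held 0.

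The genes most like EMC6 across the 6 libraries were named by the root mean square difference of log2(FPKM + 1), each gene being set to its own siCtrl mean. They were NOLC1 (0.12), a nucleolar phosphoprotein gene, BICD2 (0.13), a dynein adaptor gene, GANAB (0.14), ZNF664 (0.19) and PRMT6 (0.20), an arginine methyltransferase gene. GANAB encodes the catalytic subunit of glucosidase II, which trims glycans in the endoplasmic reticulum. It had 42.2, 35.5 and 37.0 FPKM in siCtrl libraries and 107, 109 and 96.7 FPKM in siNUF2 libraries. As EMC6 was chosen for its rise, these likenesses are descriptions.

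Other routes into and across the ER membrane were examined with 7 lists holding 49 tested genes. In edgeR's test 3 of the 49 were called, 0 higher and 3 lower (6.12%, against 3.99% of all genes, of which 2.46% lower), and with the replicate block 10 were called, 2 higher and 8 lower (20.4%, against 14.5%). Of the Sec61 channel, the main protein-conducting pore, 1 of 6 genes was called lower and 0 higher. By direction alone 2 were higher and 4 lower, with a list median of -0.11. The called gene was SEC62, a partner of the channel. It went from 14.9 ± 1.81 to 10.1 ± 0.601 FPKM (SD, n = 3 each), a log2 fold change of -0.54 (edgeR adjusted p = 0.0403). Of the GET/TRC route for tail-anchored proteins, 1 of 7 genes was called lower and 0 higher. By direction alone 5 were higher and 2 lower (median 0.06). CAMLG went from 12.5 ± 0.762 to 17.4 ± 1.66 FPKM (SD, n = 3 each), a log2 fold change of 0.50. Its edgeR adjusted p was 0.0686 without the block and 0.0142 with it. UBL4A, a subunit of the cytosolic pretargeting complex, went from 27.9 ± 1.24 to 18.7 ± 0.592 FPKM (SD, n = 3 each), a log2 fold change of -0.56 (edgeR adjusted p = 0.0147). Of the TRAP complex and TRAM1, which act beside the channel, 1 of 5 genes was called lower and 0 higher. By direction alone 1 was higher and 4 lower (median -0.18). SSR3, the gamma subunit of TRAP, went from 113 ± 6.12 to 81.8 ± 6.91 FPKM (SD, n = 3 each), a log2 fold change of -0.44 (edgeR adjusted p = 0.0457). TRAM1 went from 36.6 ± 3.08 to 25.5 ± 3.34 FPKM (SD, n = 3 each), a log2 fold change of -0.50. Its edgeR adjusted p was 0.0656 without the block and 0.00677 with it. TATGGAA was present in the canonical transcripts of 13 of the 49 list genes, against 27.3% of transcripts. These were SEC62, SSR3 and 11 genes that were not called, and UBL4A held 0. The sites of SEC62 and SSR3 lay in the 3′ untranslated region, as did those of SPCS3, SRPRB, SSR1 and TMCO1, which were not called. In the remaining uncalled genes with the word the sites lay in the coding sequence. A link between these sites and the calls was not tested. SEC62 and SSR3 passed in 0 of the 6 fits that left out 1 library (adjusted p 0.0738 to 0.149 and 0.0716 to 0.159), and UBL4A passed in 2 of them (0.0406 to 0.0679).

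None of the 8 genes of the multipass translocon, 8 of the signal recognition particle and its receptor, 5 of the signal peptidase or 10 targets of the unfolded protein response passed edgeR's test without the block. With the block 0, 2, 2 and 1 of them passed. These were SRP68, SRPRA, SEC11A, SPCS3 and HYOU1 (edgeR adjusted p with the block 0.0209, 0.0305, 0.0119, 0.0481 and 0.0192). SEC11A was higher and the others lower. Without the block SRPRA had a log2 fold change of -0.27 (edgeR adjusted p = 0.309). HYOU1, of the unfolded protein response targets, had -0.33 (edgeR adjusted p = 0.339). Values without the block follow for SRP68, SEC11A and SPCS3. The medians of these lists were 0.07, -0.07, 0.19 and -0.16. In the multipass translocon, the largest rise was that of NOMO2 (0.23, adjusted p = 0.466) and the largest fall that of CCDC47 (-0.16, adjusted p = 0.538), and NOMO1, NOMO2 and NOMO3 are near-identical copies whose reads may be split between them. In the signal recognition particle and receptor they were SRP19 (0.32, adjusted p = 0.229) and SRP68 (-0.33, adjusted p = 0.131), and in the signal peptidase SEC11A (0.40, adjusted p = 0.0748) and SPCS3 (-0.24, adjusted p = 0.650). HSPA5, the ER chaperone BiP, had 256 ± 76.0 FPKM in siCtrl and 219 ± 55.1 FPKM in siNUF2 cells (SD, n = 3 each). Among the unfolded protein response targets the largest rise was that of PDIA4 (0.15, adjusted p = 0.684) and the largest fall that of DDIT3 (-0.48, adjusted p = 0.449).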

How the data were processed

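Poly(A) RNA of 8505C cells was sequenced by the authors as paired-end reads in 3 siCtrl and 3 siNUF2 libraries. Per the labels and the study's methods, the authors used fastp, HISAT2 with GRCh38 and StringTie, and versions, annotation release, strand setting and counting tool are not given in the sources used here. The authors deposited counts (whole numbers per gene, not normalized) and FPKM (scaled by length and library size) per library. Groups and replicate numbers came from the sample titles.

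Counts of genes whose mean FPKM reached 1 were tested with edgeR 4.0.16 (TMM, quasi-likelihood) in R 4.3.3, with Benjamini-Hochberg adjustment over 11725 genes and a threshold of 0.05. Alternatives used limma 3.58.1 and DESeq2 1.42.0, and the code was tested on simulated data. The F-test of the study's methods on log2(FPKM + 1) was an alternative, here with Benjamini-Hochberg adjustment and no fold cut. The study's methods combine a P threshold with a fold-change cut, so the numbers of genes called are not comparable. Replicate libraries differed by more than counting error (chi-square over its degrees of freedom, 54.7 to 77.7). Deviations from group means correlated at 0.418 to 0.539 between same-numbered libraries and at -0.316 to -0.125 otherwise, so replicate numbers pair the libraries. What a number shares is not stated. Gene IDs matched GENCODE release 44 for 32855 of 32985 genes, with the same start and end for 24948.

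The members, lists and named genes were chosen with earlier results of these data known. Named genes were the 10 subunits, genes overlapping them, the nearest genes beside EMC6, called genes of each list or else its largest rise and fall, and the 5 genes most like EMC6. HSPA5, GET1, TMCO1, CAMLG, TRAM1, SRPRA and HYOU1 were picked after their values were seen. The searches for the siRNA seed word and promoter words were also made with values known. Values of some genes that the rule names are not reported here.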

Additional observations from a re-analysis of the deposited data

How the results depend on the processing

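The number of genes called, 468, was 188 with no filter, 972 with DESeq2, 78 with the F-test on log2(FPKM + 1), 1705 with the replicate block and 124 to 251 with 1 library left out. Fits with the replicate block that also left out replicate number 1, 2 or 3, added after the data were seen, called 1193, 1771 and 1020 genes. NUF2 stayed lower and past the threshold in all of these fits. Of the 9 EMC subunits other than EMC6, 1 was called with the replicate block (EMC9, log2 fold change -0.53) and 0 under each other alternative, and the block changed no other subunit's call. The log2 fold change of EMC6 was 1.41 to 1.54 over the alternatives without those added later. Of 153 values under alternatives for the subunits other than EMC6, 140 kept their direction and their side of the threshold and 12 changed sign, all of them for subunits near 0. With 1 library left out, EMC3 ranged from -0.10 to 0.02 (0.0021 without siCtrl replicate 1), EMC4 ranged from -0.01 to 0.15, EMC7 from -0.05 to 0.13, EMC8 from -0.11 to 0.09, EMC9 from -0.70 to -0.29 and EMC10 from -0.10 to 0.11, with -0.04 without siNUF2 replicate 3. EMC10 was at -0.004 with the filter at a mean FPKM of 5. In the blocked fits without replicate 2, EMC4 was at -0.0023, EMC8 at 0.06 and EMC10 at -0.05, and EMC7 was at -0.06 without replicate 1. In the lists, the Sec61 channel had 0 calls with no filter, with limma at either pseudocount, with the F-test and in each fit with 1 library left out. The GET/TRC route had 2 calls with DESeq2 and 2 with the replicate block, of which 1 was higher and 1 lower with the block. It had 0 to 1 with 1 library left out, and 2, 3 and 1 in the blocked fits without replicate 1, 2 and 3. The TRAP complex and TRAM1 had 0 calls with no filter, with the F-test and with 1 library left out, and 2 with DESeq2, with the replicate block and in each blocked fit with a replicate left out. The signal recognition particle and receptor had 2 calls with the replicate block and 0, 3 and 0 in the blocked fits without replicate 1, 2 and 3. The signal peptidase had 1 call with DESeq2, 2 with the replicate block and 1, 2 and 1 in the blocked fits without replicate 1, 2 and 3. The unfolded protein response targets had 1 call with the replicate block and 2, 2 and 0 in the blocked fits without replicate 1, 2 and 3. The difference in the share of EMC8 was 3.24 to 12.6 points with 1 library left out. The causes were not tested. Depth was similar between libraries, and EMC9 and EMC6 had the fewest counts of the subunits.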

Other observations

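The Oxa1-like proteins of the ER membrane can be set side by side, a choice made after the values were seen. EMC3, GET1 and TMCO1 had log2 fold changes of -0.05, -0.06 and 0.02 in siNUF2 cells, with edgeR adjusted p of 0.869, 0.895 and 0.943. These values do not speak for the other genes of their routes. CAMLG, in the same list as GET1, had 0.50 (edgeR adjusted p = 0.0686, and 0.0142 with the replicate block).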
